A study of Mus musculus with 6 samples.

Results

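The Notch genes described here are 10 named members of the pathway: the receptors Notch1, Notch2 and Notch3, the ligands Jag1 and Jag2, the nuclear partners Rbpj and Maml1, and the target genes Hes1, Hey1 and Nrarp. They were taken by symbol from the deposited expression table, and 8 of the 10 had a row among its 11452 genes. Notch3 and Hey1 were not analysed here. The libraries came from 4T1 cells, a mouse mammary tumour line, as 3 KO pools (Myosin 1e KO) and 3 WT pools (Myosin 1e WT), and the series' design text calls the pools biological replicates. No treatment is labelled in either genotype. No source used here tells the knockout method or the origin of each pool, so p-values measure the spread between these libraries. The table's columns are numbered 1, 2 and 4 in each genotype, and the libraries are named here KO 1, KO 2, KO 4, WT 1, WT 2 and WT 4. What the number 4 stands for is likewise not stated.

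Notch receptors are single-pass membrane proteins that are activated by Jagged or Delta-like ligands on a neighbouring cell. Binding exposes the receptor to cleavage by an ADAM protease and then by gamma-secretase, and the freed intracellular domain enters the nucleus, where it joins the DNA-binding protein RBPJ and a Mastermind coactivator such as MAML1. Genes of the Hes and Hey repressor families and Nrarp, a negative regulator of the active complex, are well-known targets, and in the mammary gland the pathway is known for its part in luminal cell fate.

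The libraries held 17772003 to 19988206 reads in KO and 17980487 to 19697034 in WT. KO 4 and WT 4 stood apart from the rest, at 48.4 and 49.2 on a first principal component with 83.8% of the variance, where the other 4 libraries lay between -27.7 and -20.4. Myo1e transcripts were present in every KO library, at 6.83 log2 CPM on average in KO against 7.01 in WT, a difference of -0.18 (SE 0.09, limma adjusted p = 0.9999). The KO and WT ranges of Myo1e did not overlap, KO was below WT in 3 of 3 pairs, and the 95% interval with the library number as a replicate block was -0.29 to -0.06 (limma adjusted p = 0.32). Of 10 mammary epithelial markers 9 were measured, with summed levels of 3561 to 4529 CPM in KO and 3862 to 5236 CPM in WT, and Krt5 was not analysed here. Only Cd68 of 8 leukocyte markers and only Pdgfra of 8 fibroblast markers were measured, and 0 of 6 endothelial markers. Their summed levels were 4.51 to 7.88 CPM in KO and 3.98 to 6.99 CPM in WT for Cd68, and 7.88 to 12.2 CPM in KO and 9.42 to 11.3 CPM in WT for Pdgfra. In bulk RNA, fewer cells of a type and less RNA per cell cannot be told apart.

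All 8 measured members were expressed in every library and passed the filter of log2 CPM 0 or more in 3 libraries. CPM is the read count scaled to an effective library size, and the deposited log2 values include a small prior. The members' reads ranged from 361 for Jag2 in WT 4 to 4350 for Rbpj in KO 4, so counting alone gave each log2 value a standard error of 0.02 to 0.08. Compared per length, as CPM per kilobase of annotated exon, the 6 genes Nrarp, Jag1, Hes1, Maml1, Notch2 and Rbpj lay close together, with means over the 6 libraries of 16.1, 15.2, 14.1, 12.6, 12.1 and 11.3. Each of these overlapped its neighbour in the order over the libraries. Notch1 followed at 3.86 and Jag2 at 3.04, whose ranges also overlapped, and every library of Notch1 was below every library of Rbpj. With the length of the longest coding transcript in place of all annotated exons, Rbpj moved to 26.4 and to the head of the order and Hes1 to 19.6, while Notch1 and Jag2 kept the last places at 5.79 and 4.15.

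**Figure D1:**
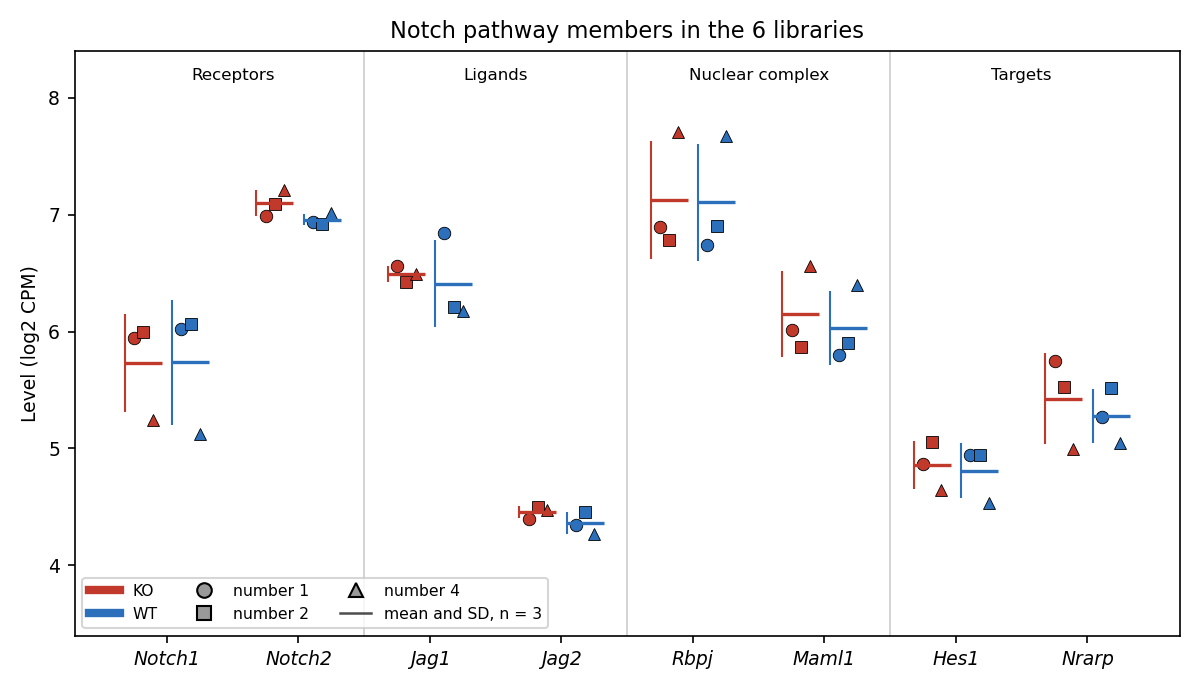
Level of the 8 measured Notch members (log2 CPM) in each library. Colour gives the genotype, the symbol the library number, the horizontal bar the genotype mean and the vertical bar its SD (n = 3); the triangles of libraries KO 4 and WT 4 lie below the others for Notch1, Hes1 and Nrarp and above them for Rbpj and Maml1.

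The promoters of 4 members are shown because these genes differed between the library numbers, as described further on: Rbpj and Maml1 in one direction, Notch1 and Nrarp in the other. Hes1 went the same way as Notch1 and Nrarp but had no promoter entry. Each line gives the 250 bases before a RefSeq transcript start (build GRCm38.p6), 5′ to 3′ on the gene's strand. Capitals mark TGGGAA, the core of the RBPJ binding site, or CACGTG, an E-box read by many basic helix-loop-helix proteins; both were searched on both strands, and no 2 matches overlapped.
Rbpj, chr5:53590096-53590345, plus strand: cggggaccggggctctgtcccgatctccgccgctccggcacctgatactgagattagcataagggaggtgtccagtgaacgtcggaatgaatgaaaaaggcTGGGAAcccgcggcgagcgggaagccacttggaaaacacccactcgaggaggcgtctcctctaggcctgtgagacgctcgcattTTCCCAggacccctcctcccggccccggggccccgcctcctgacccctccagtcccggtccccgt
Maml1, chr11:50292337-50292586, minus strand: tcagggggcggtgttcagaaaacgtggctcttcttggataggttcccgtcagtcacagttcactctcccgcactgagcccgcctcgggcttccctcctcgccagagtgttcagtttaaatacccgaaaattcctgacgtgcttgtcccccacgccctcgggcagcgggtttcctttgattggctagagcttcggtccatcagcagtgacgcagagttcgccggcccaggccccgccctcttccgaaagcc
Notch1, chr2:26503823-26504072, minus strand: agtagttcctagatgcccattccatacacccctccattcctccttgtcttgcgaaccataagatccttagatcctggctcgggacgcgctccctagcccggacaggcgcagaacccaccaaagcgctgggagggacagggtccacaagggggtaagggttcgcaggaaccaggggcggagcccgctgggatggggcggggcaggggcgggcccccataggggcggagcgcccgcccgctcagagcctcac
Nrarp, chr2:25180508-25180757, plus strand: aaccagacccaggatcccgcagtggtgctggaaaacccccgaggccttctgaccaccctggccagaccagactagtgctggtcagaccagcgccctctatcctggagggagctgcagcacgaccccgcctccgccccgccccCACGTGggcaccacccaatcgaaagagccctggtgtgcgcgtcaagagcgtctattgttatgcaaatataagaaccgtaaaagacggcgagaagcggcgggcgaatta

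RefSeq promoter entries matched 7 of the 8 members, in 8 windows; Hes1 had no entry. Rbpj alone held TGGGAA, at 149 and 65 bases before the start shown, and the window of its other listed start, further downstream, holds the nearer match too. Among all 32817 promoter windows of this length, 21.6% held TGGGAA. The E-box stood 108 bases before the start of Nrarp, and 6.02% of all windows held one. The windows of Maml1, Notch1, Notch2, Jag1 and Jag2 held neither run of letters.

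KO and WT libraries were compared for each member, with KO minus WT also taken within each library number. No member passed the threshold, and the KO and WT ranges of all 8 members overlapped; among all genes, 2.04% had every KO library above every WT library and 1.59% every one below. The differences were small: 7 of 8 members had a higher mean in KO and the median of the 8 differences was 0.09 on the log2 scale, while 47.1% of all 11269 tested genes had a higher mean in KO and their median was -0.01. The eighth, Notch1, differed by -0.01, and its sign turned when libraries were centred on their medians. KO minus WT went with exonic length over 11158 genes (Spearman's rho 0.297, genes are not independent replicates). The members' annotated exons ran from 2037 bases for Hes1 to 14232 for Notch1, and the part of length in their differences was not tested. limma's adjusted p over all genes was 0.9999 for each member, and 0 of 11269 genes (0%) passed 0.05, with 23 (0.204%) at an unadjusted p under 0.05. That fit had no term for the library number, so differences between numbers went into its SEs. The median SE over all genes was 0.197 there and 0.073 with the number as a block. The SEs of KO minus WT given below for the members are from the fit without the block. With the number as a replicate block, 1 gene (0.00887%) passed, lower in KO and not a member, and 1117 (9.91%) had an unadjusted p under 0.05, among them 1 member, Notch2.

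Among the receptors, Notch2 (chromosome 3, 98013527 to 98150361, plus strand) was at 6.99, 7.09 and 7.21 log2 CPM in KO 1, KO 2 and KO 4, against 6.94, 6.92 and 7.01 in the WT libraries 1, 2 and 4. KO was above WT in 3 of 3 pairs, by 0.05, 0.17 and 0.20, yet KO 1 lay below WT 4, so the genotypes overlapped. The mean difference was 0.14 (SE 0.10), and with the block its 95% interval was 0.03 to 0.26 (limma adjusted p = 0.42). Being above WT in 3 of 3 pairs was shared by 15.6% of all tested genes, and Jag2 was the other member that did so; 17% of genes and 0 members were below WT in 3 of 3.

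Notch1 (chromosome 2, 26457903 to 26516663, minus strand), the receptor best known for its role in T cell development and leukaemia, was at 5.94, 5.99 and 5.25 log2 CPM in KO 1, KO 2 and KO 4, against 6.02, 6.07 and 5.12 in the WT libraries 1, 2 and 4. KO 4 and WT 4 lay below the other 4 libraries, which spanned 5.94 to 6.07 in both genotypes together. Within numbers 1, 2 and 4, KO minus WT was -0.08, -0.07 and 0.13. With the block, the 95% interval of the mean difference was -0.15 to 0.14.

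Jag1 (chromosome 2, 137081456 to 137116644, minus strand), the ligand mutated in Alagille syndrome in humans, spread more widely in WT than in KO. Its levels were 6.56, 6.43 and 6.49 log2 CPM in KO 1, KO 2 and KO 4, against 6.84, 6.21 and 6.18 in the WT libraries 1, 2 and 4. The KO libraries lay inside the WT range, with an SD of 0.07 in KO and 0.37 in WT (n = 3). WT 1 stood above every other library, with 2214 reads against 1378 in WT 2 and 1352 in WT 4. KO minus WT was -0.28 in number 1, and 0.21 and 0.31 in numbers 2 and 4, with a mean of 0.08 (SE 0.19). The interval with the block was -0.14 to 0.30.

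Jag2 (chromosome 12, 112907819 to 112929776, minus strand), the second Jagged ligand, was lower and more even. It was at 4.40, 4.50 and 4.47 log2 CPM in KO 1, KO 2 and KO 4, against 4.35, 4.46 and 4.27 in the WT libraries 1, 2 and 4. KO was above WT by 0.05, 0.04 and 0.20 in numbers 1, 2 and 4, with a mean of 0.10 (SE 0.11). The pair differences in numbers 1 and 2 were below the counting error of a single Jag2 value, which was 0.07 to 0.08.

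In the nuclear complex, Rbpj (chromosome 5, 53466152 to 53657362, plus strand), the DNA-binding partner, was at 6.90, 6.78 and 7.71 log2 CPM in KO 1, KO 2 and KO 4, against 6.74, 6.90 and 7.67 in the WT libraries 1, 2 and 4. Its 2 highest libraries were KO 4 and WT 4. Mouse Rbpj has processed pseudogenes, and how reads shared with them were counted is unknown, so its level is less certain than the others. KO minus WT was 0.16, -0.12 and 0.03 in numbers 1, 2 and 4, with a mean of 0.02 (SE 0.34), and the interval with the block was -0.11 to 0.16.

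Maml1 (chromosome 11, 50255634 to 50292311, minus strand), the coactivator, was at 6.01, 5.87 and 6.56 log2 CPM in KO 1, KO 2 and KO 4, against 5.80, 5.90 and 6.39 in the WT libraries 1, 2 and 4. KO minus WT was 0.21, -0.03 and 0.17, with a mean of 0.12 (SE 0.24). An antisense gene, Gm26542, overlaps Maml1, and whether the counting used strand is unknown. Gm26542 held 22 to 31 reads in KO and 27 to 36 reads in WT, while Maml1 held 1011 to 1970 in KO and 1076 to 1574 in WT.

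Of the targets, Hes1 (chromosome 16, 30064384 to 30067796, plus strand), a transcriptional repressor, was at 4.87, 5.06 and 4.65 log2 CPM in KO 1, KO 2 and KO 4, against 4.95, 4.95 and 4.54 in the WT libraries 1, 2 and 4. KO minus WT was -0.08, 0.11 and 0.11, with a mean of 0.05 (SE 0.17) and an interval with the block of -0.12 to 0.21. The lowest library in each genotype was the one numbered 4.

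Nrarp (chromosome 2, 25180758 to 25183339, plus strand) had the largest mean difference of the 8. It was at 5.75, 5.53 and 4.996 log2 CPM in KO 1, KO 2 and KO 4, against 5.27, 5.51 and 5.05 in the WT libraries 1, 2 and 4. KO 1 stood above all other libraries, and KO minus WT was 0.48 in number 1 but 0.02 and -0.05 in numbers 2 and 4. The mean of 0.15 (SE 0.23) rested mainly on number 1, and without KO 1 it was -0.016.

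**Figure D2:**
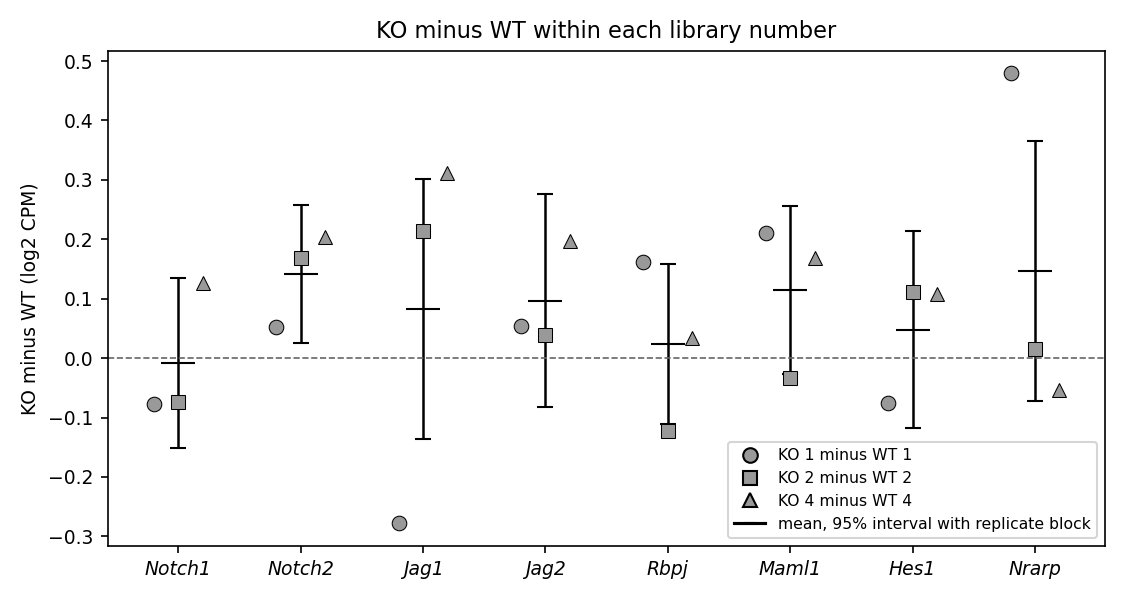
KO minus WT (log2 CPM) of each Notch member within library numbers 1, 2 and 4 (symbols), with the mean and its 95% interval from the blocked fit (bars). Notch2 and Jag2 have all 3 pairs above 0; Jag1 runs from -0.28 in number 1 to 0.31 in number 4.

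A test of whether KO minus WT differed between number 4 and numbers 1 and 2 called 0 of 8 members and 0 of 11269 genes (0%; 440 at an unadjusted p under 0.05, or 3.9%, and 0 members). The difference of differences was 0.34 (SE 0.30) for Jag1, -0.30 (SE 0.19) for Nrarp and 0.20 (SE 0.12) for Notch1, with a limma adjusted p of 0.997 for each. Jag1 depended on 1 library here: without WT 2 the value was 0.66. That fit had 1 residual degree of freedom per gene, and within WT it set WT 1 alone against WT 4 alone.

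The libraries numbered 4 were then set against those numbered 1 and 2, with genotype as a term in the fit. The fit treated KO 4 and WT 4 as independent, although their deviations from the genotype mean correlated at 0.921. Each genotype has 1 library numbered 4. The SEs and p-values of this comparison therefore measure spread among these libraries, not among repeats of what the number stands for. In the libraries numbered 4, Rbpj and Maml1 rose and Notch1, Hes1 and Nrarp fell, and for these 5 the groups did not overlap. Notch2, Jag1 and Jag2 did not pass the threshold. Calls were common in this comparison: 7398 of 11269 genes (65.6%) passed, 31.8% higher and 33.8% lower, against 5 of 8 members, 2 higher and 3 lower, so the members' share was near the background. Groups that did not overlap were also common, with 35.8% of genes higher in both libraries numbered 4 and 37% lower in both. The median size of the difference was 0.43 over the members and 0.37 over all genes.

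Rbpj averaged 7.69 log2 CPM in the libraries numbered 4 and 6.83 in the other 4, a difference of 0.86 (SE 0.06, 1.82-fold, limma adjusted p = 4.4e-06). The rise was 0.87 within KO and 0.85 within WT. Maml1 averaged 6.48 in number 4 and 5.90 in numbers 1 and 2, a difference of 0.58 (SE 0.07, 1.50-fold, limma adjusted p = 5.4e-05), with 0.62 within KO and 0.54 within WT. Both partners of the nuclear complex thus moved the same way in both genotypes.

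Notch1 averaged 5.18 log2 CPM in the libraries numbered 4 and 6.01 in the others, a difference of -0.82 (SE 0.07, 0.565-fold, limma adjusted p = 7.9e-06), with -0.72 within KO and -0.92 within WT. Notch2 did not follow it: it averaged 7.11 in number 4 and 6.98 in numbers 1 and 2, a difference of 0.13 (SE 0.05, limma adjusted p = 0.066), and among the alternatives run it passed only with quantile normalization, at 0.23. Per kilobase, Notch1 reached 0.194 and 0.204 times the Notch2 level in KO 4 and WT 4, against 0.355 to 0.419 times in the other 4 libraries. The ratio of the receptors' transcripts in number 4 was thus outside the range of the other libraries in both genotypes. So was that of Rbpj to Maml1, at 0.957 in KO 4 and 1.05 in WT 4 against 0.801 to 0.866, while that of Hes1 to Nrarp overlapped. How often such ratios separate over all genes was not counted.

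Nrarp averaged 5.02 log2 CPM in the libraries numbered 4 and 5.52 in the others, a difference of -0.49 (SE 0.10, 0.710-fold, limma adjusted p = 0.0024). It was -0.64 within KO and -0.34 within WT, and the call ended without KO 4, at -0.34 (limma adjusted p = 0.067). Hes1 averaged 4.59 in number 4 and 4.96 in numbers 1 and 2, a difference of -0.36 (SE 0.08, 0.777-fold, limma adjusted p = 0.0032), with -0.32 within KO and -0.41 within WT. Its call ended without WT 4, at -0.32 (limma adjusted p = 0.052).

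The ligands did not pass. Jag1 averaged 6.33 log2 CPM in number 4 and 6.51 in numbers 1 and 2, a difference of -0.18 (SE 0.15, limma adjusted p = 0.32) that was -0.01 within KO and -0.35 within WT. Jag2 averaged 4.37 in number 4 and 4.43 in numbers 1 and 2, a difference of -0.05 (SE 0.09, limma adjusted p = 0.60), and its 95% interval was -0.25 to 0.14. Per kilobase the Jag1 level was 4.48 to 4.85 times that of Jag2 in number 4 and 4.04 to 6.75 times in numbers 1 and 2, with overlap.

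**Figure D3:**
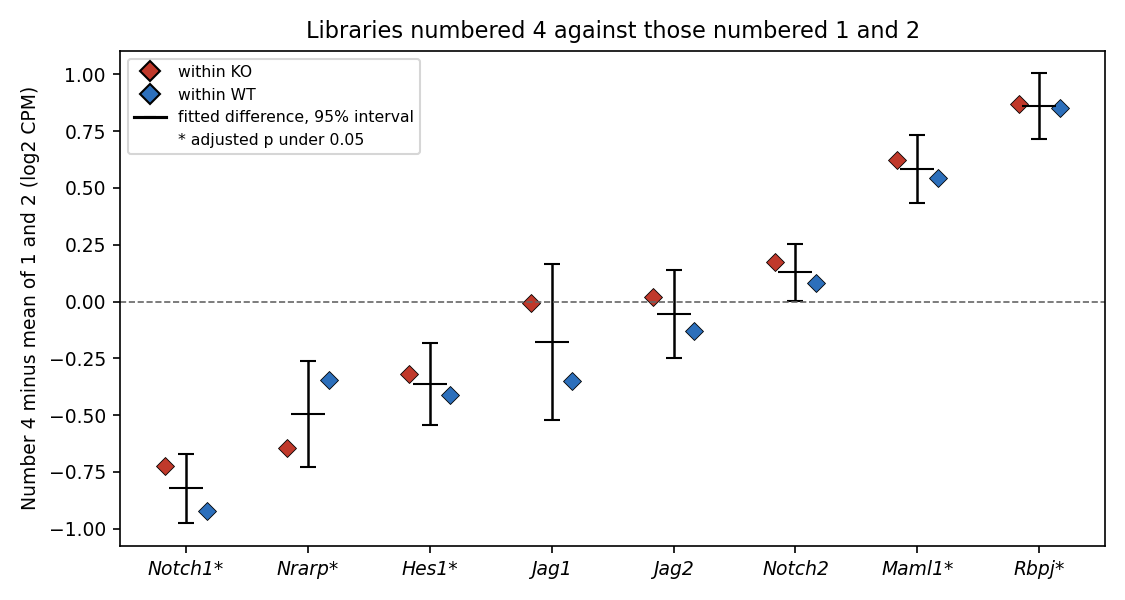
Difference between the library numbered 4 and the mean of libraries 1 and 2 (log2 CPM), within KO and within WT (diamonds), with the fitted difference and its 95% interval (bars); an asterisk marks an adjusted p under 0.05. The order runs from Notch1 at -0.82 to Rbpj at 0.86.

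Other measures moved with the number. The summed level of the 9 measured mammary epithelial markers was 3561 to 3862 CPM in number 4 and 4482 to 5236 CPM in numbers 1 and 2. The 6 measured mitochondrially encoded genes, which can follow RNA quality, summed to 2967 to 3215 CPM in number 4 and 3886 to 5063 CPM in the others. Their part in the members' differences was not tested.

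The rest of the pathway was read from 7 lists of 79 other genes, of which 67 were measured and tested. For KO against WT, 0 of 67 passed, with or without the block, 42 had a higher mean in KO and 25 a lower one, and the median difference was 0.03. For number 4 against 1 and 2, 19 of 67 rose and 18 fell, or 37 of 67 against the 65.6% of all genes, and the median was 0.05. The counts of each list below stand beside 31.8% of all genes higher and 33.8% lower. Of all genes, 15.6% were above WT and 17% below WT in 3 of 3 pairs. The genes named below were picked for a small p in their list, so their values are not typical of it.

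Of the other ligands, Dll4, a Delta-like ligand best known from blood vessels, fell in number 4 by 0.80 on the log2 scale (SE 0.22, limma adjusted p = 0.011), with -1.34 within KO and -0.26 within WT, and Dlk2, a non-canonical ligand, fell by 0.49 (SE 0.10, limma adjusted p = 0.0021). Dll1 differed by -0.41 (SE 0.23, limma adjusted p = 0.14). Between genotypes Dll4 averaged 3.23 ± 0.78 log2 CPM in KO against 2.75 ± 0.17 in WT (SD, n = 3), and KO minus WT was 0.63 and 1.04 in numbers 1 and 2 but -0.25 in number 4. Dll1 was as uneven, with KO minus WT of -0.09, 0.80 and -0.40. Dlk2 was above WT in 3 of 3 pairs, averaging 3.97 ± 0.35 in KO against 3.64 ± 0.22 in WT, and did not pass with the block (limma adjusted p = 0.31). Notch4, Dll3, Dlk1 and Dner were not analysed here.

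Among genes of receptor cleavage, 3 of 9 rose in number 4 and 2 fell. The gamma-secretase subunit genes Ncstn, Psen2 and Psenen rose by 0.26, 0.32 and 0.42 (limma adjusted p = 0.0027, 0.0056 and 0.0083). Aph1a, another subunit gene, differed by 0.06 in that comparison and was below WT in 3 of 3 pairs, averaging 5.26 ± 0.09 log2 CPM in KO against 5.49 ± 0.12 in WT (SD, n = 3; limma adjusted p = 0.29 with the block). Its relative Aph1b had KO minus WT of -0.70, -0.41 and 0.30.

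Enzymes that place sugars on the receptor's extracellular repeats were split, with 1 of 8 higher and 2 lower in number 4. Xxylt1 and Gxylt1, xylosyltransferase genes, fell by 0.65 and 0.56 (limma adjusted p = 9.8e-05 and 5.9e-05), and Poglut3, a glucosyltransferase gene, rose by 0.31 (limma adjusted p = 0.021). Pofut1, which adds the fucose that ligand binding needs, differed by -0.16 (limma adjusted p = 0.054).

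Of the genes for trafficking of receptors and ligands, 5 of 13 rose in number 4 and 1 fell. Mib2, a ubiquitin ligase for ligands, rose most, averaging 4.73 ± 0.07 log2 CPM in the 2 libraries numbered 4 and 3.23 ± 0.16 in the other 4 (SD), a difference of 1.50 (SE 0.12, 2.83-fold). Its relative Mib1 differed by 0.01 (SE 0.06), and KO minus WT of Mib1 was 0.22, 0.02 and 0.13 (limma adjusted p = 0.49 with the block). The Deltex genes Dtx3 and Dtx4 rose by 0.86 and 0.80. Numb, an antagonist of the receptors, differed by 0.05 (SE 0.10).

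Coactivators and genes of receptor turnover gave 2 of 10 higher and 3 lower in number 4. Maml2, a relative of Maml1, rose by 0.87 (SE 0.09), beside the 0.58 of Maml1. Kat2a, an acetyltransferase gene, and Ccnc, the cyclin of the kinase module that marks the intracellular domain for turnover, fell by 0.37 each. The acetyltransferase genes Crebbp and Ep300 did not pass there. Between genotypes they were above WT in 3 of 3 pairs: Crebbp averaged 5.69 ± 0.08 log2 CPM in KO against 5.39 ± 0.13 in WT, and Ep300 averaged 6.71 ± 0.06 in KO against 6.52 ± 0.04 in WT (SD, n = 3), with limma adjusted p of 0.20 and 0.30 with the block.

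For corepressors the counts were 6 of 14 higher and 3 lower in number 4. Cir1, which links RBPJ to deacetylases, rose by 1.12 (SE 0.12), and the histone demethylase gene Kdm5a by 0.76 (SE 0.05). The deacetylase genes Hdac2 and Hdac1 fell by 0.48 and 0.36. Hdac1 was also below WT in 3 of 3 pairs, with KO minus WT of -0.06, -0.17 and -0.25, and did not pass with the block (limma adjusted p = 0.40). Spen, a large corepressor scaffold, was above WT in 3 of 3 pairs, at 6.95 ± 0.07 log2 CPM in KO against 6.74 ± 0.09 in WT (SD, n = 3). It did not pass with the block (limma adjusted p = 0.27). Crebbp, Ep300 and Spen have annotated exons of 13540 to 14273 bases, and KO minus WT went with exonic length over 11158 genes (Spearman's rho 0.297, genes are not independent replicates). The part of length in these values was not tested.

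Of other genes described as Notch targets, 2 of 10 rose and 5 fell in number 4, beside the fall of Hes1 and Nrarp. Myc, a growth regulator, rose by 1.08 (SE 0.05), averaging 9.61 ± 0.02 log2 CPM in number 4 and 8.53 ± 0.06 in numbers 1 and 2 (SD). Ccnd3, a G1 cyclin gene, and Id3, an inhibitor of basic helix-loop-helix factors, fell by 1.12 and 1.05. Hey2, a relative of Hey1 and Hes1, fell by 1.28 (SE 0.46, limma adjusted p = 0.034) at very low levels of 4 to 24 reads a library. Its groups overlapped, with KO 4 at -0.91 log2 CPM above WT 2 at -1.05. Nrg1, a ligand gene of the ErbB receptors, differed by 0.15 (SE 0.08). Between genotypes Id3 was below WT in 3 of 3 pairs, by -0.24, -0.01 and -0.47, and averaged 5.75 ± 0.71 log2 CPM in KO against 5.99 ± 0.51 in WT (SD, n = 3). Nrg1 was above WT in 3 of 3 pairs, averaging 4.68 ± 0.07 in KO against 4.54 ± 0.12 in WT. Neither passed with the block (limma adjusted p = 0.38 for Id3 and 0.56 for Nrg1). Many other pathways also control these genes.

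**Figure D4:**
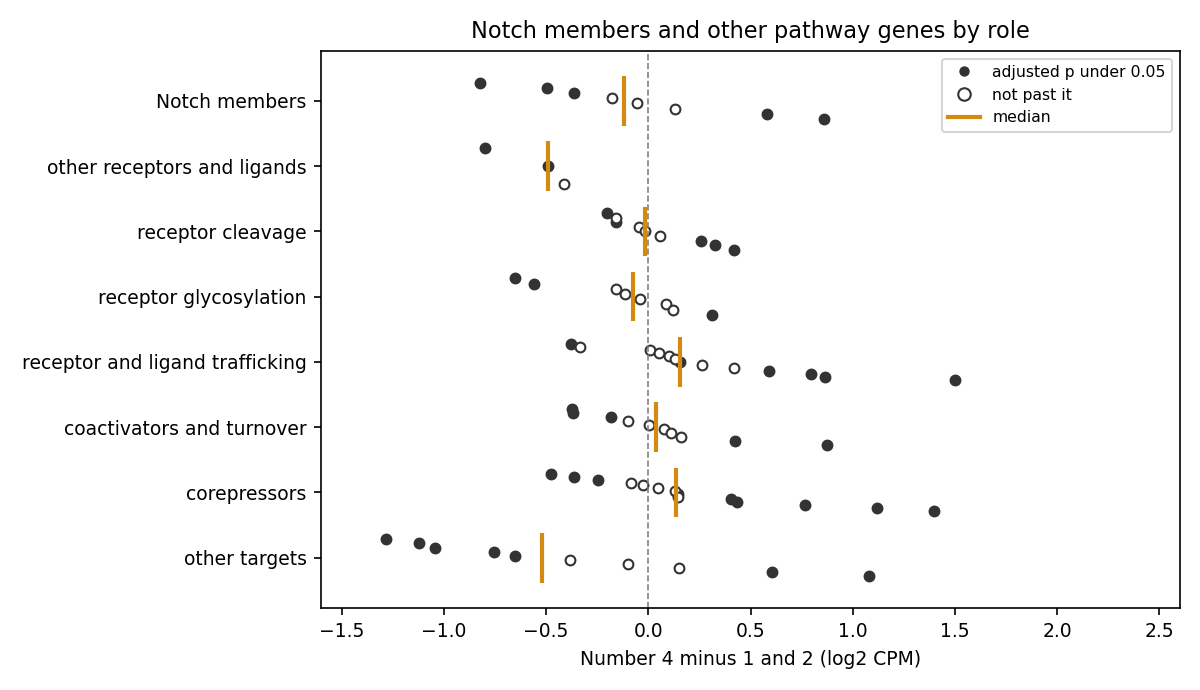
Number 4 minus 1 and 2 (log2 CPM) for the 8 Notch members and the 67 other measured pathway genes, by role. Filled points passed an adjusted p of 0.05, open points did not, and the bar is the median of a list. The other targets have a median of -0.52 and the members one of -0.12, beside 0.003 over all tested genes.

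Profiles over the 6 libraries were compared by the root mean square distance between log2 CPM values centred on each gene's mean. Among the members, Rbpj and Maml1 were each other's nearest, 0.14 apart, as were Notch2 and Jag2, 0.10 apart. Notch2 and Jag2 varied little, with ranges of 0.29 and 0.22 over the libraries, which by itself keeps their distance small. Neither pair was compared with all genes. Hes1 was the nearest member to Notch1 and Nrarp, at 0.22 and 0.18. Over all 11268 other tested genes, those nearest to Notch1 were Gart, Pcid2 and Prps2, at 0.030, 0.033 and 0.037, and 333 genes lay within 0.1. Nearest to Nrarp were Lnpk, Pdp1 and Greb1l, at 0.043, 0.055 and 0.074, with 26 genes within 0.1. Jag1 had fewer close profiles: Myo5b, Ust and Cyb5d2 stood at 0.062, 0.074 and 0.075, and 8 genes lay within 0.1. All these profiles come from the same 6 libraries, with the same split by number.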

How the data were processed

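The authors deposited log2 CPM values of 6 libraries. The submitters' processing notes name edgeR, featureCounts, Subread 1.6.4, STAR 2.7.3a, Trimmomatic 0.39 and the build GRCm38; no source used here gives the annotation, the strand setting or how the values were normalized. Every listed gene had log2 CPM 0 or more in at least 2 libraries. Linear values stepped in whole reads (tolerance 0.01 reads, 100% of values), which gave the reads per library; 3 reads correspond to 0.144 to 0.173 CPM.

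Genes with log2 CPM 0 or more in 3 libraries (11269; 183 dropped) were fitted with limma 3.58.1 (R 4.3.3, variance trend), two-sided, with Benjamini-Hochberg adjustment over all genes and a threshold of 0.05. An exact permutation test of 3 against 3 cannot go below 0.1. Columns 1 and 2 were matched to pools by number, and columns 4 to genotype only. Deviations from the genotype mean correlated at 0.744, 0.784 and 0.921 between same-numbered KO and WT libraries (numbers 1, 2 and 4), so the numbers were taken as a replicate block in an alternative fit. The pairing rests on these values and not on a label, and mostly on number 4: KO 1 with WT 2 and KO 2 with WT 1 gave 0.687 and 0.617, and KO 1 minus KO 2 against WT 1 minus WT 2 gave 0.256 across genes. No 2 libraries agreed within sampling noise (chi-square per degree of freedom 4.89 or more).

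Members and lists were chosen with earlier results of these data known. Other pathway genes are named where they had one of the 3 smallest p in their list, in the blocked genotype comparison or the comparison of numbers; genes of like profile are the 3 nearest to the most variable receptor, ligand and target. A gene that met this rule is not reported here. Lengths and positions are from GENCODE M21 (GRCm38).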

Additional observations from a re-analysis of the deposited data

How the results depend on the processing

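Alternatives were a filter at log2 CPM 1 or none, 1 or 0.25 CPM added before the log, quantile normalization, median centring, a robust variance or one without trend, limma voom on the recovered reads, the replicate block, a term for number 4, libraries 1 and 2 only, and leaving out each library, with no genotype term as a further one for the comparison of numbers. For KO against WT, 0 members passed under each one run, and the count over all genes was 0 in limma except with the replicate block, where it was 1 (1117 at an unadjusted p under 0.05); the block changed no other call. Signs turned for Jag1 in libraries 1 and 2 only (-0.032) and for Notch1 under median centring (0.00013). With 1 library left out, which leaves the numbers unequal between genotypes by construction, KO minus WT ran from -0.32 to 0.23 for Notch1, -0.034 to 0.30 for Jag1, -0.27 to 0.31 for Rbpj, -0.092 to 0.30 for Maml1, -0.089 to 0.15 for Hes1, -0.016 to 0.36 for Nrarp, 0.083 (without KO 4) to 0.20 for Notch2 and 0.054 (without WT 4) to 0.15 for Jag2. For number 4 against 1 and 2, 4 to 6 members and 5592 to 7530 genes passed, and Jag2 ran from -0.13 to 0.021 with 1 library left out. A lone library numbered 4 is then assumed to vary like the others. The test of the difference between numbers called 0 members with every library kept. Without WT 2 its value for Jag1 was 0.66, and the test could not be fitted without KO 4 or WT 4. The longest coding transcript in place of all exons was chosen after seeing the data. Depth limits Jag2 and Hes1 most, with 361 to 595 reads a library.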
